A study of Homo sapiens with 6 samples.

Results

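The potassium channel genes were taken as the protein-coding genes whose symbol starts with KCN, the prefix under which pore-forming potassium channel subunits and many of their accessory subunits are named. Of 62700 genes in the count tables, 123 had such a symbol, and 96 of these were protein-coding. A gene counted as expressed when it had 10 or more counts in 3 or more of the 6 libraries, and 35 of the 96 met this rule. The counts came from RNA sequencing of OVCAR8 cells, an established human ovarian carcinoma line, wild type in both groups. The Leptin group, 3 libraries, received 100 ng/ml of the adipocyte hormone leptin for 24 h. The Control group, also 3 libraries, received PBS. Both groups were grown in RPMI-1640 with 10% FBS and kept without serum overnight before treatment. Whether the replicates came from separate cultures is not given in the labels, and the p-values describe only the library-to-library spread, which could be technical. All of the data are from this 1 cell line.

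Potassium channels let potassium ions leave the cell down their gradient and so set the membrane potential. Voltage-gated (Kv) channels open on depolarization and are assembled from several pore-forming subunits. Some of these, the silent subunits, form channels only together with a Kv2 subunit. K2P channels carry tandem pore domains in each subunit and conduct the resting, or leak, current. Calcium-activated channels couple the potential to cytosolic calcium, and inward rectifiers (Kir) pass inward current more readily than outward current. In carcinoma cells, members of all these classes have been studied for roles in cell volume, cell cycle progression and migration.

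The promoters of KCNK1 and KCNK5 are shown because these K2P genes fell with leptin. Each sequence is the 250 bases upstream of the annotated start in RefSeq on GRCh38.p14, read 5′ to 3′ on the gene's strand. Capitals mark GC boxes, the motif GGGCGG or its reverse complement CCGCCC, with overlapping matches counted separately. KCNK1 lies at chr1:233613856-233614105 on the plus strand, and KCNK5 at chr6:39229476-39229725 on the minus strand.
KCNK1: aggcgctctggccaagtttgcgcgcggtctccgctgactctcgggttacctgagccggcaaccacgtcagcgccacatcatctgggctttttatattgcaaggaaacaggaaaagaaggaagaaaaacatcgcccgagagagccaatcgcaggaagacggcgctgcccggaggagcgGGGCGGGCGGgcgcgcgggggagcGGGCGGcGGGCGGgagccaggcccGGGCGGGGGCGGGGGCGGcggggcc
KCNK5: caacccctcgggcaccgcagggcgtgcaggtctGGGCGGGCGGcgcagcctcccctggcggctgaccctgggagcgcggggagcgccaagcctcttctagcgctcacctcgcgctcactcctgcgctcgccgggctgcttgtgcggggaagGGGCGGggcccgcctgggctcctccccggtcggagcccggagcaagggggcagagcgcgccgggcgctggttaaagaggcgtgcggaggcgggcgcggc
The KCNK1 stretch held 7 GC boxes and was 69.2% G or C, and the KCNK5 stretch held 3 and was 77.2% G or C. In windows of 300 bases, which add the first 50 bases of the transcript, at least 1 GC box was found in 50.9% of 110 windows of 72 KCN genes and in 45.0% of all 35116 RefSeq windows. The palindrome TTCNNNGAA, bound by STAT factors that act downstream of the leptin receptor, was in neither of the stretches shown. It was found in 3 of the 110 KCN windows (2.73%) and in 7.66% of all windows. A match to a motif is a description of these letters and not a site of binding. KCNH3 and KCNG1 had no entry in the promoter table.

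Total counts per library lay between 15609425 and 18577775, of which the 96 KCN genes took between 6002 and 7203. A floor of 3 counts over the 3 libraries of a group corresponded to 0.0610 CPM in Leptin and 0.0580 CPM in Control (counts scaled to library size, with TMM scaling of the totals). Leptin replicate 1 differed most from its own group. Its score on the leading principal component of all genes (49.6% of the variance) was -2.15, against 46.3 and 39.6 in Leptin replicates 2 and 3 and -31.0 to -23.6 in Control libraries. For the genes whose call turns on this library, values without it are therefore given too. Of 10 ovarian carcinoma markers 8 were expressed, including PAX8 at 364 CPM in Leptin and 364 CPM in Control libraries. MUC16, with 15 counts in all, and MSLN, with 36, were not expressed. The summed level of that list was 3539 to 3939 CPM in Leptin and 3121 to 3392 CPM in Control libraries. Of 12 neuronal markers 4 were expressed, with a sum of 17.1 to 19.9 CPM in Leptin and 15.7 to 21.7 CPM in Control libraries, and ELAVL4 and GAP43 were at 0. Of 10 muscle markers 1 was expressed, with a sum of 1.67 to 3.34 CPM in Leptin and 1.16 to 2.04 CPM in Control libraries, and 5 were at 0. Of 10 immune markers 1 was expressed, with a sum of 2.91 to 5.36 CPM in Leptin and 2.06 to 2.80 CPM in Control libraries, and PTPRC, CD3E and ITGAM were at 0. None of these marker genes passed the test of Leptin against Control, and their part in the results was not tested. In bulk RNA, fewer cells of a type and less RNA per cell cannot be told apart.

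Every class of potassium channel was represented among the 35 expressed genes. Of 40 voltage-gated subunits 13 were expressed, of 15 K2P channels 7, of 8 calcium- or sodium-activated channels 2, of 16 inward rectifiers 4, and of 17 accessory subunits 9. By subfamily, all 3 KCND genes (Kv4 pores) were expressed, together with 3 of 4 KCNIP genes, whose products bind Kv4 channels. All 3 KCNAB genes, which encode Kv beta subunits, were expressed, but of 8 KCNA genes (the Kv1 pores that these subunits bind) only KCNA7 was. KCNG had 2 of 4, KCNH 2 of 8, KCNQ 2 of 5, KCNS 1 of 3, KCNMB 2 of 4 and KCNN 1 of 4 members expressed, and the single genes KCNMA1 and KCNRG were both expressed. No gene of the KCNE, KCNF, KCNT, KCNU or KCNV subfamilies was.

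The silent subunits KCNS3, KCNG1 and KCNG3 were expressed. KCNB2, which encodes the pore subunit Kv2.2, had 0 counts in all 6 libraries. Of the 61 members that were not expressed, 17 had no count in any library, among them the Kv1 genes KCNA1, KCNA4, KCNA5, KCNA6 and KCNA10. The expressed members with the fewest counts were KCND2 with 49 in all, KCNQ1 with 65 and KCNRG with 67. The members with the most counts that missed the rule were KCNT2 with 38 and KCNE3 and KCNJ5 with 36 each. At these counts, neither being in nor out of the set says that a channel is present or absent.

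Per length, in FPKM (fragments scaled to library size and to the exon length of the gene), the tested genes ranged between 0.0578 for KCND3 and 13.0 for KCNN4 as means over all 6 libraries, and a few genes stood far above the rest. KCNN4, the intermediate-conductance calcium-activated channel KCa3.1, was at 13.0 ± 0.872 FPKM in Leptin and 13.1 ± 1.17 FPKM in Control libraries (mean ± SD, n = 3 each, as for all values given this way). KCNK1, the K2P channel TWIK-1, was at 7.79 ± 1.09 FPKM in Leptin and 18.0 ± 0.853 FPKM in Control libraries. KCNS3, the silent subunit Kv9.3, was at 10.9 ± 1.24 FPKM in Leptin and 9.19 ± 0.537 FPKM in Control libraries. KCNK1 was thus the highest KCN gene in Control libraries and only the fifth highest in the Leptin group means, below KCNN4, KCNS3 and KCNG1 among others. Others among the 10 highest, by the mean over all 6 libraries, were KCNG1 at 6.23 FPKM, KCNK6 at 4.15, KCNMB4 at 3.70, KCNH3 at 2.79, KCNK5 at 2.43 and KCNIP3 at 2.39. KCNK6 and KCNMB4 did not differ from each other beyond their spread in Leptin libraries, at 4.29 ± 0.776 and 3.84 ± 0.842 FPKM.

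**Figure D1:**
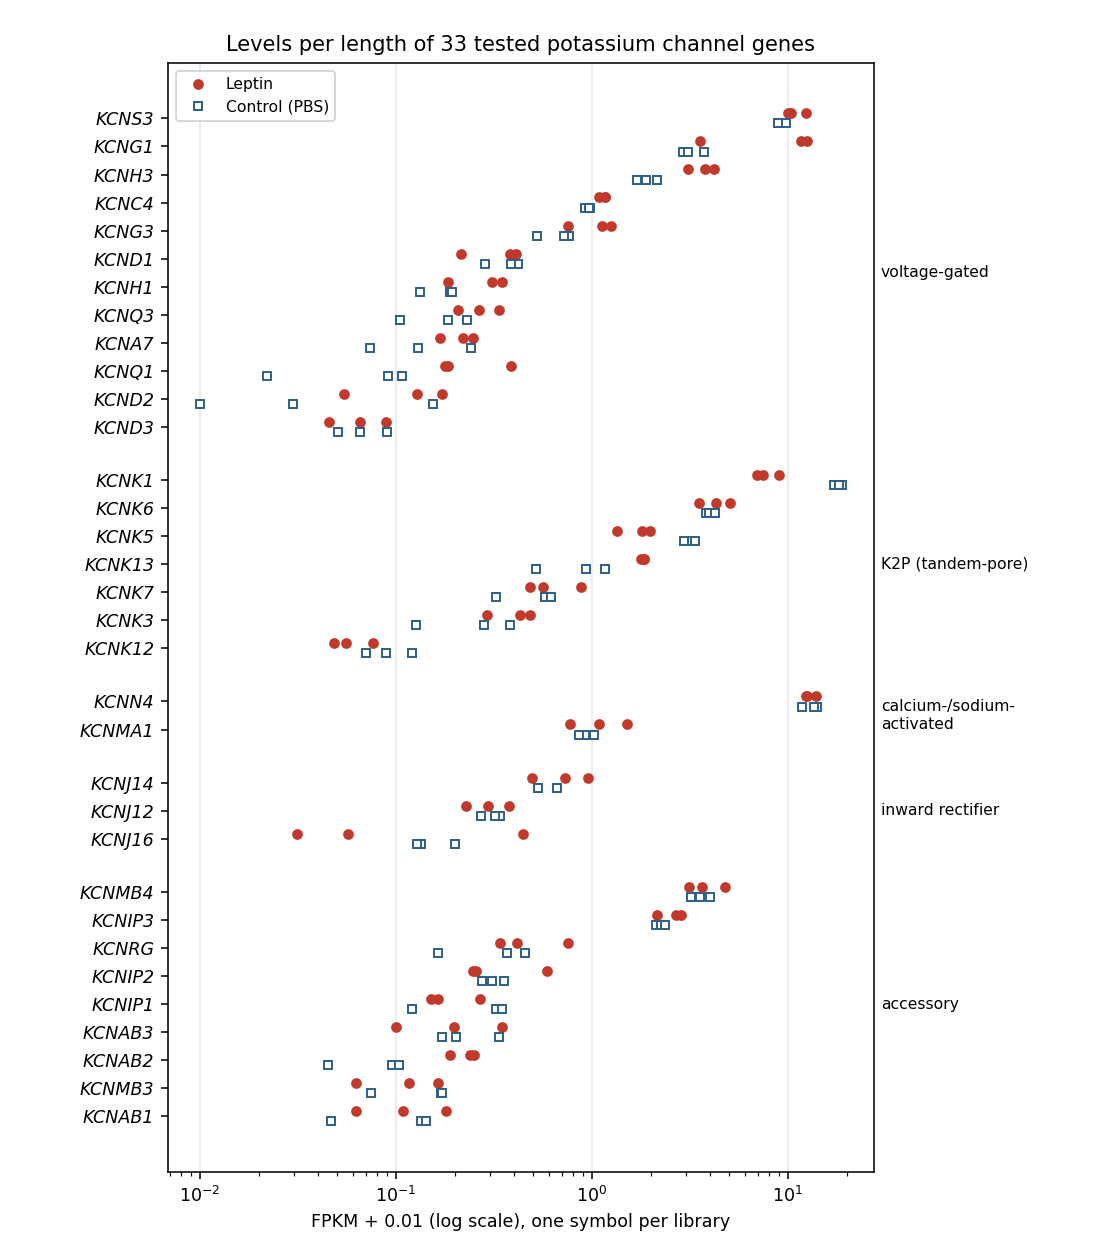
Level per length (FPKM + 0.01, log axis) of 33 tested potassium channel genes, grouped by class, with filled circles for the 3 Leptin and open squares for the 3 Control libraries. KCNN4, KCNK1 and KCNS3 have the highest means over the 6 libraries, and KCNK1 and KCNK5 have all Leptin libraries to the left of all Control libraries.

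The comparison of the groups asks which of these genes changed after 24 h of leptin. It used edgeR's quasi-likelihood test over all 15685 genes that passed its filter on low counts, with Benjamini-Hochberg adjustment over all of them and a threshold of 0.05. Of the 35 expressed KCN genes 34 were tested. With leptin, 3 of them rose, KCNH3 and KCNAB2 among them, and 2 fell (KCNK1 and KCNK5). The 5 are 14.7% of the 34, and over all tested genes 9.81% passed, 5.71% higher and 4.09% lower. Before adjustment, p was under 0.05 for 11 of 34 KCN genes and for 27.6% of all tested genes. Libraries of the groups did not overlap for 9 KCN genes (26.5%), 7 higher and 2 lower with leptin. The same held for 32.2% of all tested genes, 16% higher and 16.2% lower. A log2 fold change above 0 was found for 24 of the 34 (70.6%, median 0.25), and for 50.8% of all tested genes (median 0.01). A gene can enter the test through its level in 1 group alone, so these shares are descriptions of the libraries.

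Without Leptin replicate 1, 13 of 35 KCN genes passed, 10 higher and 3 lower, and these included all 5 that passed with all libraries. The share over all genes was then 29.6%, 16% higher and 13.5% lower. DESeq2 called 7 KCN genes, 5 of them higher, and 14.3% of all genes, 8.63% higher. With no filter on low counts, 9 of 79 KCN genes passed, 6 of them higher, against 7.42% of all genes, 4.5% higher. When either Control replicate 1 or Control replicate 3 was left out, KCNK1 alone passed, while the count over all genes dropped to 115 and 170. KCNK1 passed under all 15 alternatives planned for single genes and under all 6 that left out 1 library with the GC trend removed.

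**Figure D2:**
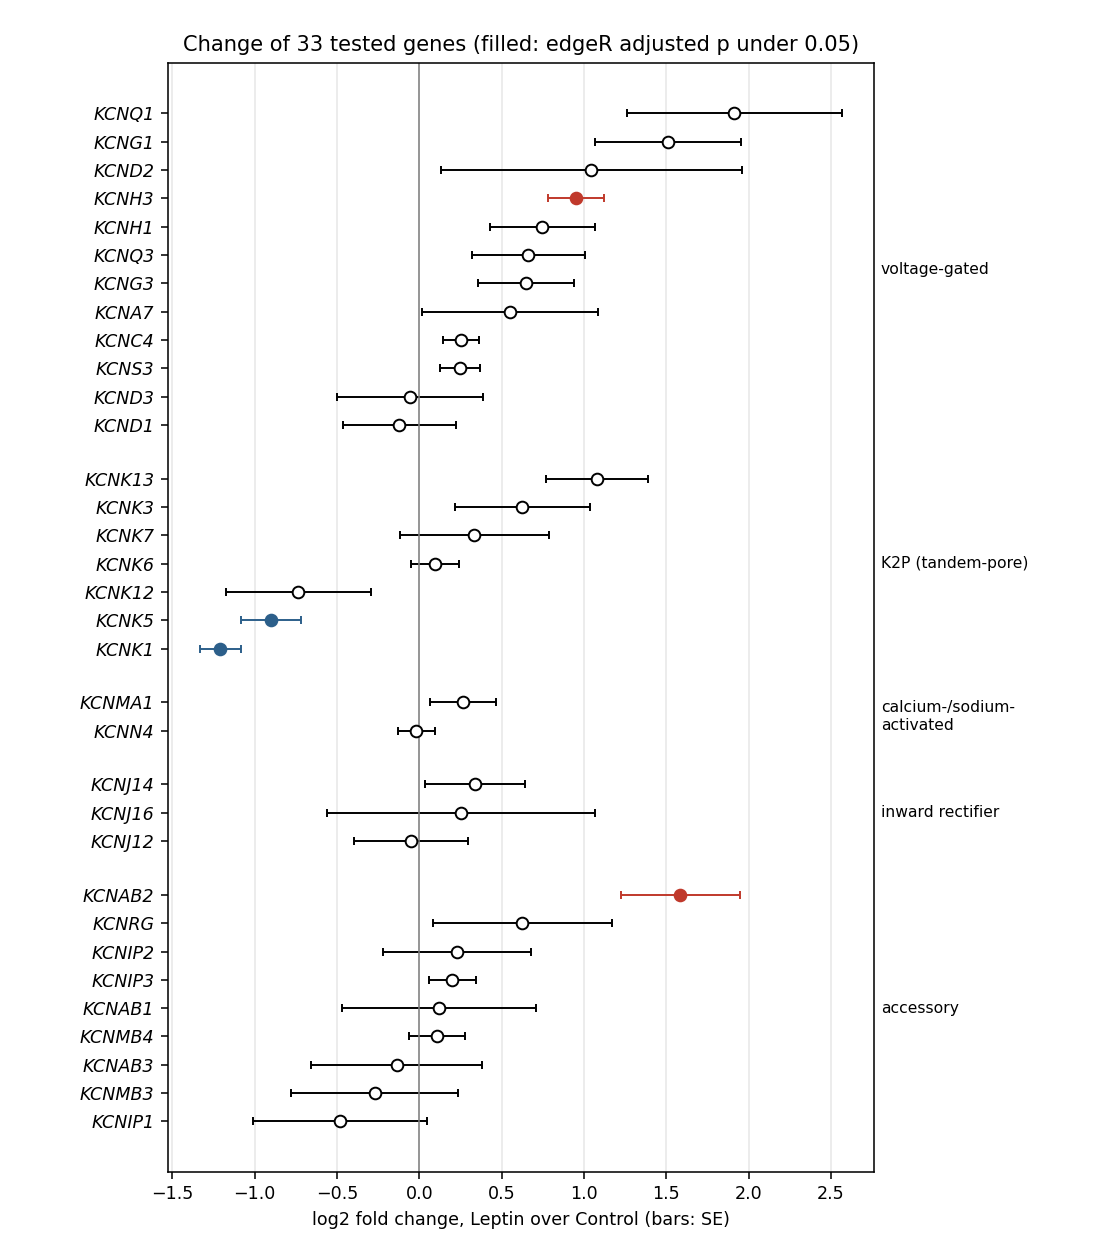
Log2 fold change, Leptin over Control, of 33 tested potassium channel genes by class, with bars of 1 SE and filled symbols for an edgeR adjusted p under 0.05. Red symbols mark KCNH3 and KCNAB2, which rose, and blue symbols mark KCNK1 and KCNK5, which fell.

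Among the 7 K2P channels tested, KCNK1 and KCNK5 fell and none rose. Over all tested genes 4.09% fell and 5.71% rose. The summed level of the 15 K2P genes was 61.1 to 78.2 CPM in Leptin and 103 to 108 CPM in Control libraries. Nearly all of the difference between these sums was KCNK1, and the sums of the other K2P genes overlapped between the groups. KCNK1 (chr1:233614106-233672514, plus strand, hg38) encodes TWIK-1, a weakly inward-rectifying leak channel of many epithelia. It had 31.8, 26.1 and 24.5 CPM in Leptin replicates 1 to 3 and 66.1, 60.2 and 64.1 CPM in Control replicates 1 to 3. All Leptin libraries lay below all Control libraries, including Leptin replicate 1. The means were 27.5 ± 3.86 CPM in Leptin and 63.5 ± 3.01 CPM in Control libraries, a log2 fold change of -1.21 ± 0.12 (SE; edgeR adjusted p = 0.00109). Leaving out single libraries kept it between -1.34 and -1.13, with a highest adjusted p of 0.0191.

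KCNK5 (chr6:39188971-39229475, minus strand) encodes TASK-2, a leak channel that opens at alkaline external pH and takes part in cell volume regulation and renal bicarbonate transport. It had 6.80, 7.42 and 5.05 CPM in Leptin replicates 1 to 3 and 11.1, 12.2 and 12.6 CPM in Control replicates 1 to 3, with no overlap. The means were 6.42 ± 1.23 CPM in Leptin and 12.0 ± 0.770 CPM in Control libraries, a log2 fold change of -0.90 ± 0.18 (SE; edgeR adjusted p = 0.0151). The call did not hold without Leptin replicate 3 (adjusted p = 0.0598), nor without Control replicate 1 (0.0773), Control replicate 2 (0.0725) or Control replicate 3 (0.0938).

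The other K2P genes did not pass. KCNK13, which encodes THIK-1, a leak channel known from microglia, had 4.04, 4.21 and 4.22 CPM in Leptin replicates 1 to 3 and 1.16, 2.11 and 2.64 CPM in Control replicates 1 to 3. Its groups did not overlap, and its log2 fold change of 1.08 ± 0.31 (SE) lay just outside the threshold (edgeR adjusted p = 0.0504). It was inside with DESeq2 (adjusted p = 0.0172), limma-voom (0.0451), no filter on low counts (0.0130) or without Leptin replicate 1 (0.0188), and its adjusted p was 0.193 without Control replicate 1. KCNK6 encodes TWIK-2, of the same subgroup as TWIK-1, and was at 26.5 ± 4.79 CPM in Leptin and 24.7 ± 1.36 CPM in Control libraries (log2 fold change 0.10 ± 0.15, edgeR adjusted p = 0.707). KCNK3 (TASK-1), KCNK7 and KCNK12 (THIK-2) had log2 fold changes of 0.63, 0.33 and -0.73, with overlapping groups and edgeR adjusted p-values between 0.309 and 0.674.

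**Figure D3:**
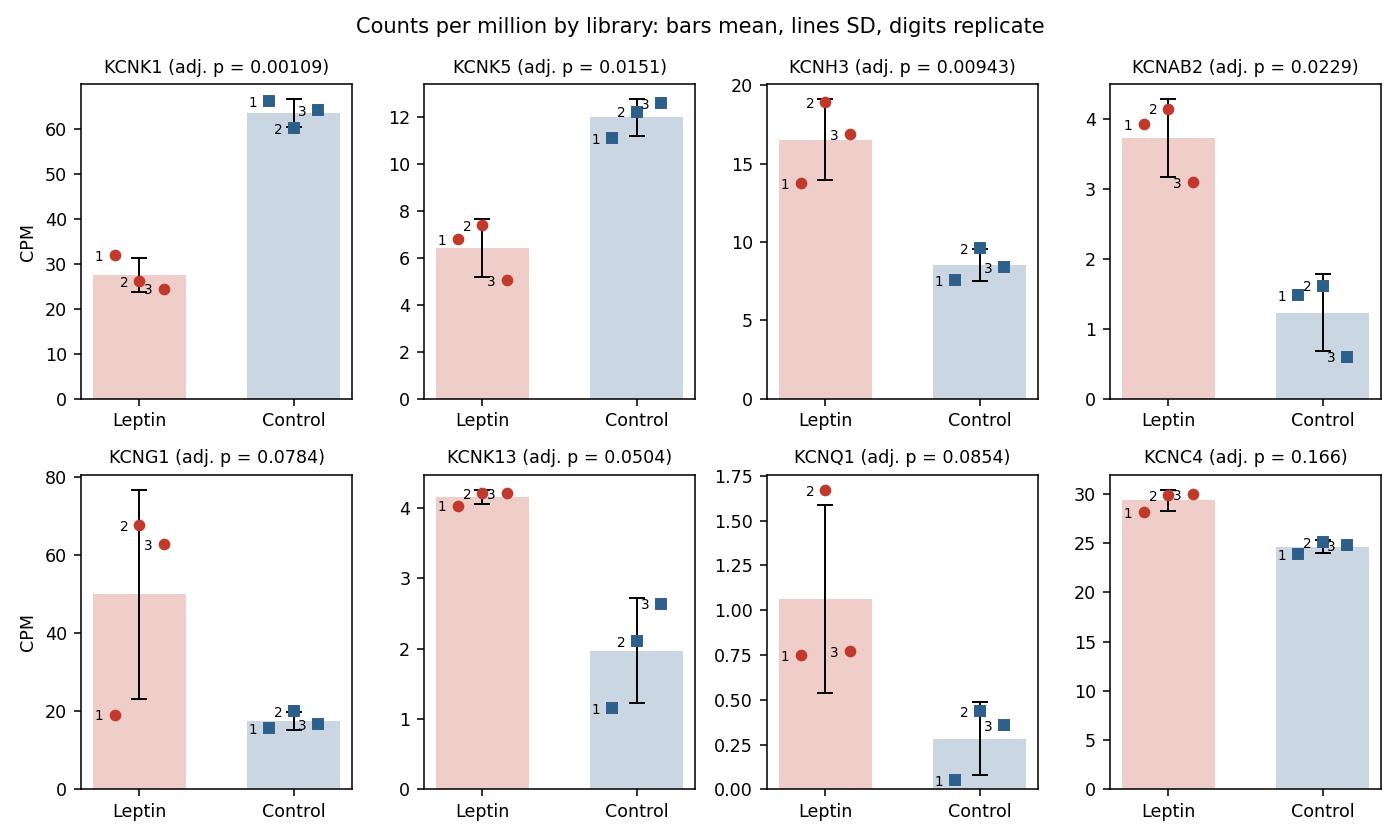
CPM in each library, numbered by replicate, for 4 potassium channel genes past the threshold (KCNK1, KCNK5, KCNH3 and KCNAB2) and for KCNG1, KCNK13, KCNQ1 and KCNC4, with bars for the mean and lines for the SD of 3 libraries. The groups do not overlap in any panel except KCNG1, where Leptin replicate 1 lies among the Control libraries.

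Among the 13 voltage-gated subunits tested, 2 rose, KCNH3 being one, and none fell, and 11 had a log2 fold change above 0 (median 0.66). Over all tested genes 5.71% rose, 4.09% fell and 50.8% had a log2 fold change above 0. The summed level of the 40 genes was 181 to 237 CPM in Leptin and 123 to 142 CPM in Control libraries. Without KCNG1, whose level in Leptin replicate 1 lay within the Control range, it was 154 to 170 CPM in Leptin and 107 to 122 CPM in Control libraries. KCNC4, which encodes Kv3.4, a fast-inactivating channel, had 28.1, 29.9 and 30.0 CPM in Leptin replicates 1 to 3 and 23.9, 25.2 and 24.8 CPM in Control replicates 1 to 3. Its groups did not overlap, but its log2 fold change of 0.25 ± 0.11 did not pass (edgeR adjusted p = 0.166).

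KCNH3 (chr12:49539030-49558337, plus strand) encodes Kv12.2, an ether-a-go-go family channel known mainly from forebrain neurons. It had 13.8, 18.9 and 16.9 CPM in Leptin replicates 1 to 3 and 7.59, 9.63 and 8.40 CPM in Control replicates 1 to 3. Each Leptin library lay above each Control library. The means were 16.5 ± 2.58 CPM in Leptin and 8.54 ± 1.03 CPM in Control libraries, a log2 fold change of 0.95 ± 0.17 (SE; edgeR adjusted p = 0.00943). Leaving out Leptin replicate 3 gave an adjusted p of 0.0516, Control replicate 1 gave 0.0773 and Control replicate 3 gave 0.0662. The transcript is rich in G and C, and after removal of each library's GC trend its log2 fold change was 0.51 ± 0.15 and did not pass (edgeR adjusted p = 0.0672). KCNH1, which encodes Kv10.1 (EAG1), the family member most studied in tumours, had 2.25, 4.34 and 3.86 CPM in Leptin replicates 1 to 3 and 1.58, 2.30 and 2.34 CPM in Control replicates 1 to 3. Leptin replicate 1 lay in the Control range and the others above it. With all libraries KCNH1 did not pass (log2 fold change 0.75 ± 0.32, edgeR adjusted p = 0.157). Without Leptin replicate 1 it did (0.98 ± 0.29, edgeR adjusted p = 0.0189, or 0.0183 with the GC trend also removed). With any other library left out it did not (edgeR adjusted p = 0.256 to 0.430). Of the KCNH1 exon bases 46.8% are shared with other genes, so its count is uncertain.

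The silent subunit gene KCNG1 (chr20:51003656-51023107, minus strand), which encodes Kv6.1, split the Leptin libraries. It had 332, 1013 and 1059 counts in Leptin replicates 1 to 3 and 299, 324 and 278 counts in Control replicates 1 to 3, or 19.1, 67.7 and 62.9 CPM in Leptin and 15.8, 20.1 and 16.7 CPM in Control libraries. Leptin replicate 1 lay within the Control range and the other Leptin libraries far above it. With all libraries the log2 fold change was 1.51 ± 0.44 (SE) and did not pass (edgeR adjusted p = 0.0784; DESeq2 adjusted p = 0.0371). Without Leptin replicate 1 it was 1.89 ± 0.12 (edgeR adjusted p = 3.59e-08). With any other library left out it was 1.22 to 1.62 and did not pass (edgeR adjusted p = 0.137 to 0.219). KCNG3, which encodes Kv6.3, had 2.77, 4.14 and 4.57 CPM in Leptin replicates 1 to 3 and 1.90, 2.80 and 2.64 CPM in Control replicates 1 to 3, and did not pass (log2 fold change 0.65 ± 0.29, edgeR adjusted p = 0.172). Without Leptin replicate 1 it passed (0.83 ± 0.28, edgeR adjusted p = 0.0331, or 0.0277 with the GC trend also removed). With any other library left out it did not (edgeR adjusted p = 0.245 to 0.454). KCNS3 was at 34.1 ± 3.87 CPM in Leptin and 28.7 ± 1.68 CPM in Control libraries. Its groups did not overlap, and its log2 fold change of 0.25 ± 0.12 did not pass (edgeR adjusted p = 0.216).

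KCNQ1, which encodes Kv7.1, the pore of the slow cardiac and epithelial current, had 13, 25 and 13 counts in Leptin replicates 1 to 3 and 1, 7 and 6 counts in Control replicates 1 to 3. The groups did not overlap, and the log2 fold change of 1.91 ± 0.65 did not pass (edgeR adjusted p = 0.0854; 0.0291 without Leptin replicate 1). Only Leptin libraries reached the count level of the expression rule, so KCNQ1 entered the set and the test through the group in which it was higher. Its lack of overlap, fold change and p-values are therefore descriptions of the libraries and do not establish a rise. Of the KCNQ1 exon bases 3.98% are shared with other genes, mainly the antisense RNA KCNQ1OT1. Counting was without strand and left out pairs that touch more than 1 gene, so KCNQ1 can lose counts there. KCNQ3, KCNA7, KCND1, KCND2 and KCND3, all at or below 3.29 CPM in the Leptin mean, had overlapping groups and edgeR adjusted p-values of 0.242 or more.

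The calcium-activated channels included KCNN4, the gene with the highest mean level per length, and none passed the test. KCNN4 had 43.6, 38.7 and 39.1 CPM in Leptin replicates 1 to 3 and 36.9, 43.9 and 42.2 CPM in Control replicates 1 to 3, with a log2 fold change of -0.02 ± 0.11 (SE; edgeR adjusted p = 0.942). With the GC trend removed and without Leptin replicate 1 it passed as lower (-0.38 ± 0.10, edgeR adjusted p = 0.0164). With the GC trend removed and any other library left out it did not (edgeR adjusted p = 0.322 to 0.465). KCNMA1 encodes the pore of the large-conductance BK channel, which opens on calcium and depolarization together. It had 29.9, 42.6 and 58.8 CPM in Leptin replicates 1 to 3 and 39.9, 35.8 and 33.5 CPM in Control replicates 1 to 3. Leptin replicate 1 was the lowest and Leptin replicate 3 the highest of the 6 libraries. Over all 6 libraries it had a log2 difference of 0.27 ± 0.20 and did not pass (edgeR adjusted p = 0.427), with 0.47 ± 0.13 (adjusted p = 0.0143) without Leptin replicate 1 and -0.01 ± 0.16 (adjusted p = 0.976) without Leptin replicate 3. The sodium-activated KCNT1 and KCNT2 were not expressed.

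Inward rectifiers were low, with a summed level of 8.22 to 8.82 CPM in Leptin and 6.90 to 7.20 CPM in Control libraries, and none of the 3 tested passed. KCNJ14, which encodes Kir2.4 and had the smallest p among them, had 3.06, 2.07 and 4.04 CPM in Leptin replicates 1 to 3 and 2.79, 2.24 and 2.22 CPM in Control replicates 1 to 3 (log2 fold change 0.34 ± 0.30, edgeR adjusted p = 0.511). Of its exon bases 30.6% are shared with other genes. KCNJ16, which encodes Kir5.1, had 48, 2 and 5 counts in Leptin replicates 1 to 3 and 15, 12 and 20 counts in Control replicates 1 to 3, so its highest library and its lowest were both Leptin libraries. Its log2 fold change was 0.25 ± 0.81 with all libraries (edgeR adjusted p = 0.874) and turned to -2.03 ± 0.68 without Leptin replicate 1 (adjusted p = 0.0345; 0.0555 with the GC trend also removed). Without that library only Control libraries reached the count level of the expression rule. KCNJ16 then entered the test through the group in which it was higher, so these p-values do not establish a fall. With all libraries kept, the log2 fold change of KCNJ16 was also below 0 with limma-voom (-0.72) and with the replicate block (-0.39). KCNJ12 has a near-identical copy, KCNJ18, and its count is uncertain.

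Both genes for pores of the ATP-sensitive (KATP) channel lay outside the test, and they are named here after their values were seen. KCNJ8, which encodes Kir6.1, had 0, 0 and 0 counts in Leptin replicates 1 to 3 and 12, 6 and 5 counts in Control replicates 1 to 3. The 23 Control counts (exact 95% Poisson interval 14.6 to 34.5, counting error only) were set against a floor of 3 counts over the Leptin group. With the lower end of that interval, KCNJ8 was at least 4.62-fold lower with leptin, a bound that leaves out the spread between libraries. With no filter on low counts its edgeR adjusted p was 0.00742, in a fit where 7.42% of 32828 genes passed. KCNJ11, which encodes Kir6.2, had 10, 40 and 30 counts in Leptin replicates 1 to 3 and 11, 7 and 7 counts in Control replicates 1 to 3. Leptin replicate 1 again lay within the Control range and the others above it. The log2 fold change of KCNJ11 with no filter was 1.78 ± 0.52 (edgeR adjusted p = 0.0123), and with a filter of 10 counts in 3 libraries it was 1.77 ± 0.56 (adjusted p = 0.0685). It was 2.18 ± 0.46 without Leptin replicate 1 (edgeR adjusted p = 0.00192) and 1.28 ± 0.60 without Leptin replicate 2 (adjusted p = 0.224). ABCC8, which encodes the sulfonylurea receptor that assembles with Kir6.2, was at 2.43 ± 0.713 CPM in Leptin and 1.86 ± 0.262 CPM in Control libraries (edgeR adjusted p = 0.480), and ABCC9 had 0 counts in all 6.

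Among the 9 accessory subunits tested KCNAB2 rose and none fell, where 5.71% rose and 4.09% fell over all tested genes. KCNAB2 (chr1:5990927-6101193, plus strand) encodes Kv-beta-2, a cytosolic subunit with an aldo-keto reductase fold that binds Kv1 channels. It had 68, 62 and 52 counts in Leptin replicates 1 to 3 and 28, 26 and 10 counts in Control replicates 1 to 3, or 3.92, 4.14 and 3.09 CPM in Leptin and 1.48, 1.62 and 0.600 CPM in Control libraries. The groups did not overlap, with Control replicate 3 the lowest. The means were 3.72 ± 0.556 CPM in Leptin and 1.23 ± 0.550 CPM in Control libraries, a log2 fold change of 1.58 ± 0.36 (SE; edgeR adjusted p = 0.0229). Its adjusted p was 0.00598 without Leptin replicate 1. Leaving out Leptin replicate 2 gave 0.0637, Leptin replicate 3 gave 0.0676, Control replicate 1 gave 0.0974, Control replicate 2 gave 0.0628 and Control replicate 3 gave 0.0978. The 8 KCNA genes, whose Kv1 pores it binds, summed to 0.831 to 1.27 CPM in Leptin and 0.316 to 0.960 CPM in Control libraries. Most of that was KCNA7, with 17, 13 and 11 counts in Leptin and 5, 8 and 16 counts in Control libraries.

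The more abundant accessory genes did not pass. KCNMB4, which encodes the beta-4 subunit of BK channels, was at 18.6 ± 4.09 CPM in Leptin and 17.3 ± 1.95 CPM in Control libraries (log2 fold change 0.11 ± 0.17, edgeR adjusted p = 0.730). KCNIP3 encodes calsenilin, also known as DREAM, a calcium-binding partner of Kv4 channels. It was at 20.4 ± 2.94 CPM in Leptin and 17.7 ± 0.977 CPM in Control libraries (log2 fold change 0.20 ± 0.14, edgeR adjusted p = 0.395). KCNRG, whose product restrains Kv channel assembly, shares 66.8% of its exon bases with TRIM13 on the same strand, so its 67 counts are uncertain. The remaining accessory genes, at or below 1.20 CPM in the group means, had overlapping groups.

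The GC content of a gene's transcript moved with its fold change in these libraries. Over 15249 genes with a known value the Spearman correlation across genes was 0.39, and over the 34 KCN genes it was 0.13 (genes of a library share its preparation and are not independent). The KCN genes were richer in G and C, with a median of 54.2% against 48.4% over all tested genes. In the top quintile of genes by GC content, at 58.1% or more, 17.6% of all genes rose and 0.590% fell. Of 9 KCN genes in that quintile 3 rose and 1 fell. Among the genes that rose, KCNH3 and KCNAB2 stood at 65.8% and 61.1%. Among those that fell, KCNK5 and KCNK1 stood at 58.8% and 47.4%.

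**Figure D4:**
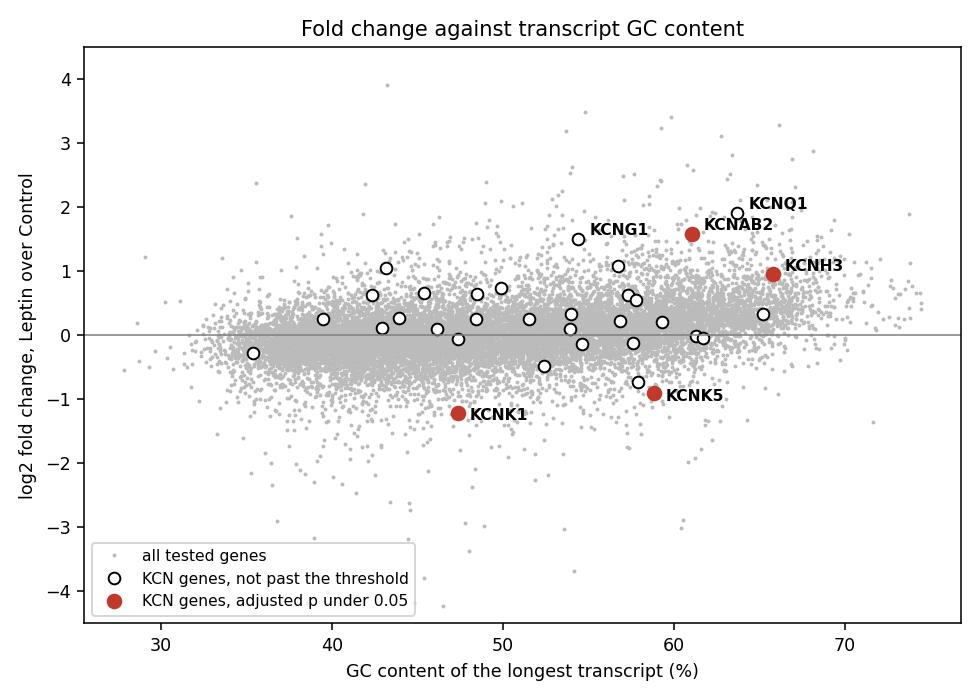
Log2 fold change, Leptin over Control, against the GC content of the longest transcript for all tested genes (grey) and 33 potassium channel genes (circles, filled where the edgeR adjusted p was under 0.05); 2 genes outside the vertical range are not drawn. KCNH3 and KCNAB2, which rose, lie above 60% GC, where grey points are also mostly above 0, and KCNK1 and KCNK5 lie below the bulk of genes at their GC content.

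With each library's GC trend removed, 5.53% of all genes passed (2.72% higher, 2.82% lower), and of the KCN genes 2 did, both lower with leptin. KCNK1 then stood at -1.15 ± 0.12 on the log2 scale (edgeR adjusted p = 0.00143) and KCNK5 at -1.08 ± 0.19 (adjusted p = 0.0120). None of the 3 genes that rose passed, KCNAB2 being at 1.34 ± 0.36 (edgeR adjusted p = 0.0558). KCNAB2 passed where the replicate number was also a block (adjusted p = 0.0315). The block without GC removal kept all 5 calls, against 8.31% of all genes. The median fold change of the 34 KCN genes on the log2 scale was 0.26 after removal. What set the GC trend of these libraries was not tested.

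**Figure D5:**
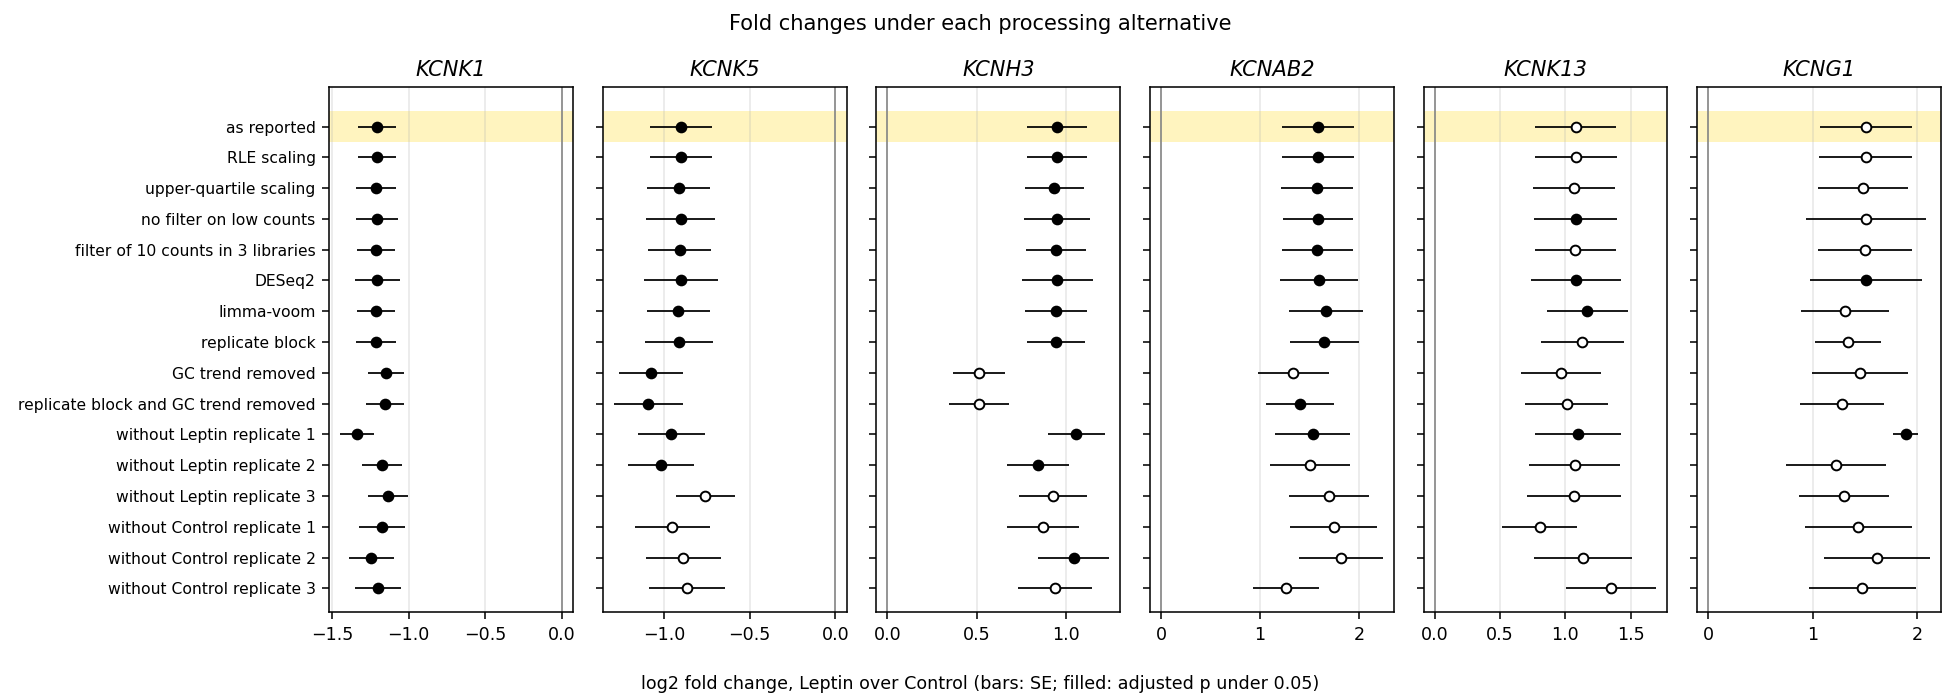
Log2 fold change, Leptin over Control, with 1 SE, of 6 potassium channel genes under each processing alternative, filled where the adjusted p was under 0.05. KCNK1 is filled in every row between -1.34 and -1.13, whereas KCNH3 is open where the GC trend was removed and KCNG1 is filled only with DESeq2 and without Leptin replicate 1.

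Other genes of potassium transport were read from a list of 44 that covers the sodium pump and its FXYD subunits, cation-chloride cotransporters, HCN channels, channel auxiliary proteins and regulatory kinases. Of these 24 were tested, 3 rose and 1 fell, with a median log2 fold change of 0.04, and 7 had no count in any library. The shares over all tested genes were 5.71% higher and 4.09% lower, with a median of 0.01. FXYD6, a regulatory subunit of the sodium pump, had 11.1, 7.75 and 5.23 CPM in Leptin replicates 1 to 3 and 3.06, 2.30 and 2.76 CPM in Control replicates 1 to 3 (log2 fold change 1.56 ± 0.29, edgeR adjusted p = 0.0102). SGK1, a kinase that raises the surface level of several ion channels, had 261, 121 and 114 counts in Leptin replicates 1 to 3 and 403, 337 and 440 counts in Control replicates 1 to 3, or 9.97 ± 4.45 CPM in Leptin and 22.9 ± 3.07 CPM in Control libraries (-1.19 ± 0.25, adjusted p = 0.0183). For both, the groups did not overlap and the call held with the GC trend removed. Leaving out any 1 Control library raised the adjusted p of FXYD6 to between 0.0593 and 0.0662, and leaving out any library except Leptin replicate 1 raised that of SGK1 to between 0.0649 and 0.102.

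HCN2, a pacemaker cation channel, had 80.7, 148 and 144 CPM in Leptin replicates 1 to 3 and 63.8, 71.2 and 59.7 CPM in Control replicates 1 to 3 (log2 fold change 0.94 ± 0.20, edgeR adjusted p = 0.0188). Its transcript is 70.8% G or C, and with the GC trend removed it stood at 0.29 ± 0.11 on the log2 scale (adjusted p = 0.143). TMEM38A, a potassium-permeable channel of the endoplasmic reticulum, was at 10.1 ± 2.65 CPM in Leptin and 5.87 ± 0.790 CPM in Control libraries (0.78 ± 0.22, adjusted p = 0.0456; 0.0940 with the GC trend removed). Both calls ended without any library other than Leptin replicate 1, with adjusted p-values of 0.0679 to 0.108 for HCN2 and 0.0755 to 0.179 for TMEM38A.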

How the data were processed

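Libraries were directional and read from both ends, per the labels' protocols. The authors deposited unnormalized counts of read pairs for each gene. Per the file headers they used featureCounts 2.0.1 on the exons of GENCODE release 44, unstranded, leaving out pairs that map more than once or touch more than 1 gene. Genes with shared exons or near-identical copies therefore lose counts. The submitters' processing notes list featureCounts 1.5.0-p3, HISAT2 2.0.5, the build hg38 and DESeq2. All 62700 IDs were matched to symbols, and 58207 gene types came from GENCODE release 29. KCNJ5-AS1, typed as protein-coding there and as non-coding in RefSeq, was left out. The tables held 0 further per-sample columns.

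Group differences in the counts were tested with edgeR 4.0.16 in R 4.3.3 (filterByExpr at a minimum of 10 counts and 15 in total, TMM, robust quasi-likelihood fits, no block for replicate number, Benjamini-Hochberg adjustment, threshold 0.05). CPM and FPKM use TMM-scaled totals, and FPKM the deposited gene lengths. Alternatives were DESeq2 1.42.0, limma-voom (limma 3.58.1), other scalings and filters, leaving out each library, a replicate block and removing the GC trend of each library (by lowess, span 0.3, on the longest GENCODE 29 transcript, as offsets, with a prior count of 2). Counts in all pairs of same-group libraries differed by more than sampling noise. Python 3.11.15 with matplotlib 3.10.9 drew the figures. The scripts were tested on simulated data.

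Genes were named by a rule: all past the threshold, the 10 highest in FPKM, the smallest p per class, those without overlap and a log2 fold change of 1 or more in size, the 3 on each side of the expression rule, and partners past the threshold. The other genes are named for their family or because they fell near the threshold. Some genes are not reported here by name. The members and lists were chosen with earlier results of these data known.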

Additional observations from a re-analysis of the deposited data

How the results depend on the processing

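The KCN count of 5 (3 higher, 2 lower) was the same with either other scaling, a filter of 10 counts in 3 libraries and the replicate block, which gave 5 KCN genes and 1303 over all genes. It was 9 with no filter (6 higher), 2 with the GC trend removed (0 higher; 868 over all genes), 3 with the replicate block and the GC trend removed (1 higher; 942 over all) and 3 at an adjusted p under 0.01 (1 lower; 274 over all). DESeq2 called 5 higher, and no filter called 2437 of all genes. Leaving out 1 library at a time, also with the GC trend removed (a combination chosen after seeing the data), gave 1 to 13 KCN genes, 0 to 10 of them higher and 1 to 3 lower, and 48 to 4761 over all genes. Of the 4 partner genes 2 passed with the GC trend removed. By 10 counts in all 6 libraries 23 members were expressed, and by 20 counts in 3 libraries 22, in place of 35. Among uncalled genes the log2 fold change changed sign for KCNIP3 (-0.000614 with the replicate block and the GC trend removed) and for KCNJ16. That of KCNJ16 was -0.721 with limma-voom, -0.386 with the replicate block and -0.247 with the block and the GC trend removed. When single libraries were left out, the sign changed for KCNIP3 (-0.0936 to 0.309), KCNJ16 (-2.03 to 0.891), KCNK6 (-0.0798 to 0.218), KCNMA1 (-0.0138 to 0.591), KCNMB4 (-0.0887 to 0.314) and KCNN4 (-0.382 to 0.0331). The causes were not tested. Deviations of same-numbered libraries had correlations of -0.05, 0.01 and -0.11, and those of unlike-numbered libraries -0.05 to 0.10. With 3 libraries per group the deviations within a group are tied to each other, so these values cannot exclude a pairing. The labels do not say what the numbers mark, and they were not read as pairs. For most of the 61 members under the expression rule, changes were not detectable at this depth.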
